A study of Homo sapiens with 8 samples.

Results

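KYSE150 cells, an established line of human esophageal squamous cell carcinoma, were compared in hypoxia and in normoxia without any drug, by sequencing of poly(A)-selected RNA. The comparison used 4 of the 8 libraries, 2 from cells kept in normoxia and 2 from cells kept in hypoxia, chosen by their column names in the deposited count table. All cells were grown in RPMI-1640 with fetal bovine serum. The other 4 libraries came from hypoxia with sodium oxamate and from hypoxia with oxamate and added lactate. They entered the expression filter, the scaling, the estimate of spread and the mean level used to choose named genes, but not the comparison. Neither the oxygen level nor the time in hypoxia is stated in the labels. KYSE150 is 1 cell line, so no value below speaks for other tumours. The comparison asked how transporters, receptors, secreted factors, transcription factors and stress genes differed between the 2 groups. These genes were gathered by symbol pattern in 30 families of protein-coding genes, so well-known hypoxia genes may be among them. Of the family members, 1262 passed the expression filter, out of 15554 tested genes.

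Cells short of oxygen stabilise hypoxia-inducible factors, which bind short DNA elements and raise genes of glucose use, vessel growth and survival. Low oxygen also restrains energy-costly work such as protein synthesis and ion pumping, and it alters which receptors, carriers and secreted signals a cell displays. In squamous epithelium, transcription factors such as TP63, GRHL3 and ELF3 set the balance between basal and differentiating cells.

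The 4 libraries held between 23390612 and 27503041 counts. Replicate counts varied beyond counting noise: chi-square was 1.85 times its degrees of freedom between the normoxia libraries and 2.11 times between the hypoxia libraries. It was 2.03 times for hypoxia with oxamate and 4.83 times for hypoxia with oxamate and lactate. Those libraries share in the pooled estimate of spread behind every standard error and p-value. No label says that replicates were grown as separate cultures, so each p-value reflects library-to-library spread alone, possibly a technical one. Summed squamous and basal epithelial markers were at 3900 CPM in both normoxia libraries and at 3540 and 3560 CPM in hypoxia. Of the 12 tested, 6 rose and 5 fell: the basal keratins KRT5 and KRT14 and the stress keratin KRT6A had log2 fold changes of -0.79, -0.79 and -1.33, while the adhesion genes CDH1, DSG3 and PKP1 rose by 1.28, 1.15 and 1.06. Of 13 leukocyte markers, 9 were at 0 counts in the 4 libraries, including PTPRC, and the list summed to 2.57 and 3.75 CPM in normoxia and 7.28 and 7.54 CPM in hypoxia, mostly from CSF1R. Of 8 fibroblast markers, 4 were at 0, and the list went from 2.69 and 3.02 to 8.69 and 8.97 CPM, mostly from COL1A1. Of 8 endothelial markers, 3 were at 0, and the list summed to between 1.93 and 2.82 CPM in the 4 libraries. The part of these low levels in the results below was not tested.

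Values below are CPM, counts scaled to library size with TMM factors, in each library, followed by the fitted log2 fold change of hypoxia against normoxia ± its standard error (n = 2 libraries per group). The quasi-likelihood test of edgeR was passed where the adjusted p was under 0.05. That threshold was met by many genes: 36.7% of all tested genes rose and 36.8% fell, 73.5% in all. With the added demand of at least a 2-fold difference, 15.6% rose and 13.1% fell. Among the 12368 tested protein-coding genes, the fitting background for the families, 36.3% rose and 42.2% fell, and 12.1% and 13.7% did so at least 2-fold. The shares of each family below are to be read beside these. The median log2 fold change was 0.02 over all tested genes and -0.06 over protein-coding genes. Upper quartile normalization moved the median over all genes to 0.12, so a family median close to 0 has no settled sign. In bulk RNA, fewer cells of a type and less RNA per cell cannot be told apart.

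The classes named receptors and secreted factors held the highest shares of genes that rose at least 2-fold, and transporters the highest share that fell. Each class is a sum of families. Neither class names nor family names hold for every member. The receptor class also counts ligands such as EFNA3 and adaptors such as TRADD. The class of secreted factors also counts genes of proteins that are not secreted, such as SMAD3, IRS1 and the membrane mucin MUC1. Of 221 tested genes in the receptor class, 55 rose at least 2-fold (24.9%) and 27 fell (12.2%), with a median of 0.20. Of 210 in the class of secreted factors, 42 rose and 23 fell at least 2-fold, with a median of 0.31. Among 306 transporters, 50 rose (16.3%) and 60 fell (19.6%) at least 2-fold, with a median of -0.14. Upper quartile normalization turned that balance, with 59 transporters higher and 49 lower, beside 14.1% and 11.6% of protein-coding genes under the same scaling. The 341 transcription factors had 52 higher (15.2%) and 38 lower (11.1%) by this rule, and the 189 stress genes had 35 (18.5%) and 24 (12.7%). Over all classes, 234 of 1262 members rose and 172 fell at least 2-fold, or 18.5% and 13.6%. Part of the excess of risers came from genes near the limit of detection. Of the 234 risers, 39 were under the filter's cutoff of 0.369 CPM in both normoxia libraries, while 17 of the 172 that fell were under it in both hypoxia libraries. Such genes passed the filter only through groups where they were higher. Among risers they made up 12 of 55 receptors and 11 of 42 secreted factors, beside 9 of 50 transporters. The counts were 4 of 52 for transcription factors and 3 of 35 for stress genes. The order of the classes by risers rests in part on such genes.

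**Figure D1:**
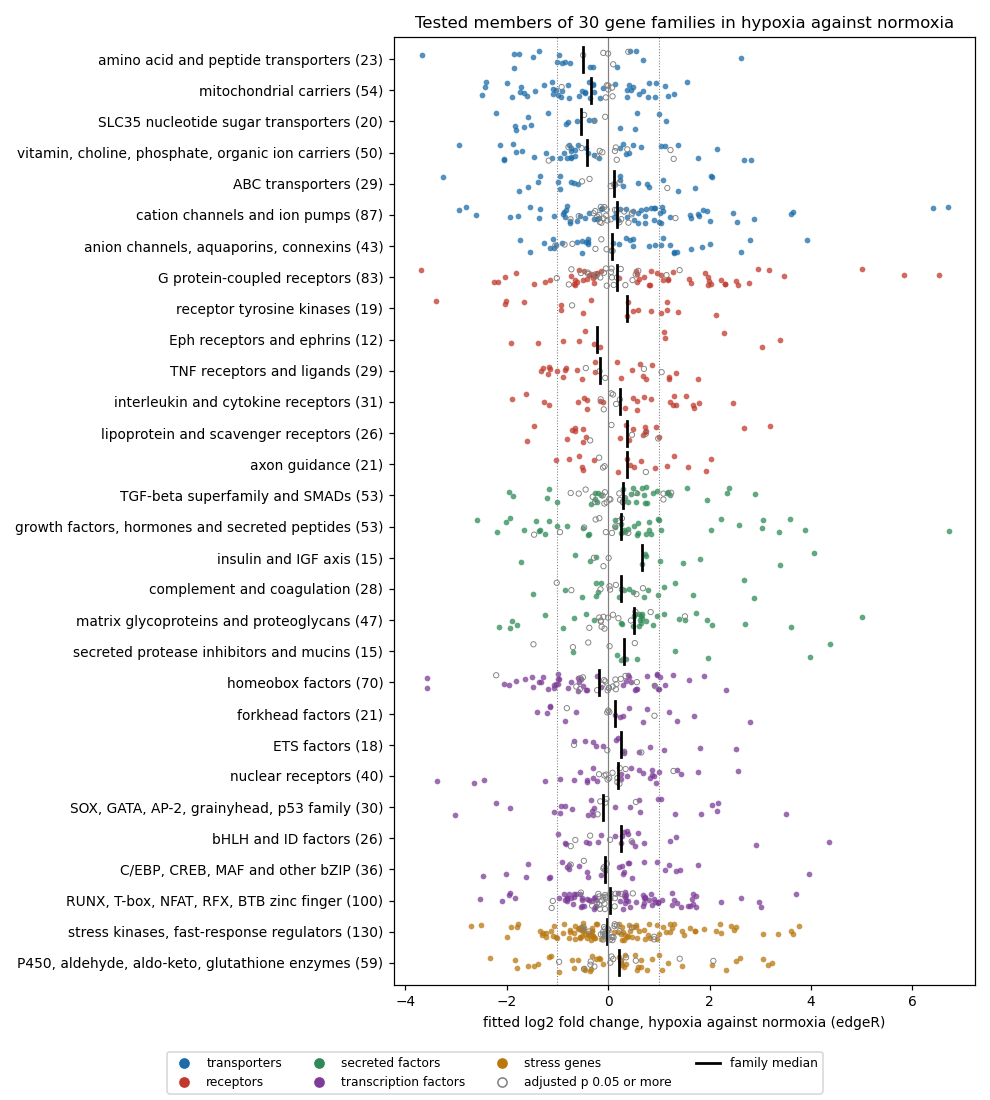
Fitted log2 fold change of hypoxia against normoxia for each tested member of the 30 families, with the number tested in parentheses. Filled points passed at an adjusted p under 0.05, open points did not, bars mark family medians and dotted lines mark 2-fold. The families spread to both sides of 0, and the first 4 transporter families have medians between -0.54 and -0.33.

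**Figure D2:**
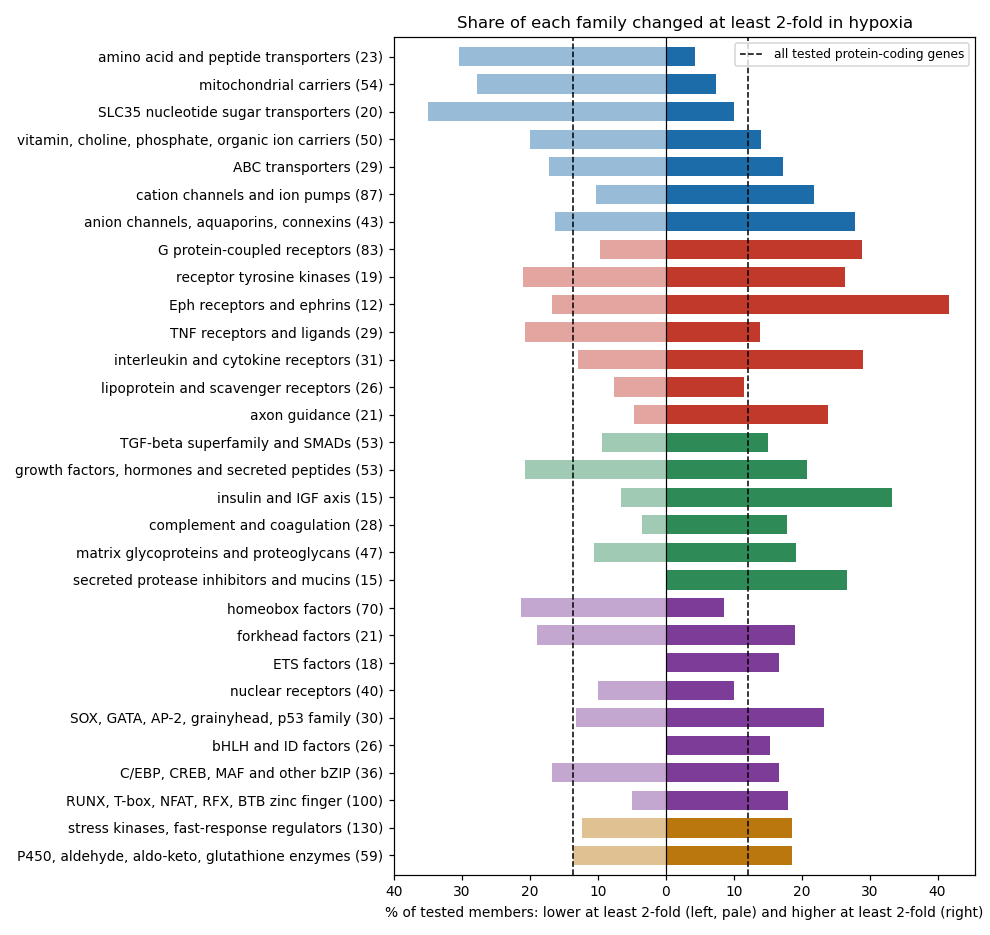
Percentage of tested members of each family that rose (right) or fell (left, pale) at least 2-fold with an adjusted p under 0.05, beside the same shares over all tested protein-coding genes (dashed, 12.1% and 13.7%). The SLC35 family, labelled nucleotide sugar transporters but gathered by symbol, has the widest bar to the left, at 35.0%. Eph receptors and ephrins have the widest to the right, at 41.7%.

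The core of the element bound by hypoxia-inducible factors, ACGTG, was counted on both strands in the 250 bases upstream of RefSeq gene starts (GRCh38.p14). The same 5 letters lie inside the E-box CACGTG, which many basic helix-loop-helix factors bind. The core stood in 18.5% of all 35116 upstream windows and in 23.3% of those of the 10564 tested genes matched by symbol. It stood in 24.3% of genes that rose at least 2-fold and in 24.1% of those that fell. Of the family members matched, 20.7% of those that rose and 25.4% of those that fell at least 2-fold held it. The windows of 4 named genes that hold it and contain no annotated exon are printed 5′ to 3′, to show the same letters ahead of a gene that rose and of 3 genes that fell. They were chosen after their values were seen. The windows of IDE, NCOA5 and ZIC5, which also fell, meet the same terms and are not printed. ETS2, which rose, has its window at chr21:38804933-38805182 on the + strand. SLC25A33 (chr1:9539215-9539464, +), MCOLN1 (chr19:7522374-7522623, +) and SGK1 (chr6:134318113-134318362, -) fell. Capitals mark the core on either strand, or the whole E-box where both strands match. A match describes these letters only.
ETS2: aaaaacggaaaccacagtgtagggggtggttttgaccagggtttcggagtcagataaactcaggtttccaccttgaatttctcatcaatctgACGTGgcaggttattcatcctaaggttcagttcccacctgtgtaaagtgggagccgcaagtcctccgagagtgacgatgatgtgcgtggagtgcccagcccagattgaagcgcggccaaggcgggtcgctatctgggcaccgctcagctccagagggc
SLC25A33: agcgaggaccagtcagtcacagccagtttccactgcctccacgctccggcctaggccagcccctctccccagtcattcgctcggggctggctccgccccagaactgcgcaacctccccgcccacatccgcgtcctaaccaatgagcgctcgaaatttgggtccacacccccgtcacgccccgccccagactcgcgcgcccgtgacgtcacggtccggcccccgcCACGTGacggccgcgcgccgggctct
MCOLN1: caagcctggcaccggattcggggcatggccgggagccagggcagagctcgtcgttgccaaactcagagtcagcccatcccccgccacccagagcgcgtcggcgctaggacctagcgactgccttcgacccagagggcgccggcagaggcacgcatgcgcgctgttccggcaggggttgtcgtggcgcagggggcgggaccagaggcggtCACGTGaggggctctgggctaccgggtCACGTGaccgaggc
SGK1: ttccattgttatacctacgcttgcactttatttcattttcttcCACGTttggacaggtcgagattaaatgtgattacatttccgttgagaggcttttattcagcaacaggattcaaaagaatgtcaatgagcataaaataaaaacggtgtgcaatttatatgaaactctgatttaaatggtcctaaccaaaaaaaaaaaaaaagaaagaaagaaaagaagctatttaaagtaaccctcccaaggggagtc

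Amino acid and peptide transporters were lower in hypoxia more often than higher. Of 23 tested members, 13 fell and 5 rose, and 7 fell at least 2-fold (30.4%) against 1 that rose. The riser was SLC6A8 (ENSG00000130821, chrX:153688099-153696593), which encodes the creatine transporter. It was at 122 and 125 CPM in normoxia and 772 and 740.2 CPM in hypoxia (log2 fold change 2.61 ± 0.04, edgeR adjusted p = 3.68e-19). SLC6A6, the taurine transporter, rose by 0.68 ± 0.06. SLC43A2 (ENSG00000167703, chr17:1569267-1628886), an exporter of neutral amino acids, fell from 13.4 and 15.3 CPM to 1.39 and 0.845 CPM (-3.67 ± 0.16, edgeR adjusted p = 3.81e-15). By the rule that named these genes their groups do not overlap, which held for 13644 of the 15554 tested genes. SLC38A7, a lysosomal glutamine and asparagine exporter, fell by 1.86 ± 0.11 on the log2 scale. Uptake carriers on the cell surface, chosen after their values were seen, went separate ways. SLC7A11, the cystine importer, had a log2 fold change of -1.75 ± 0.15, and SLC1A5, a glutamine carrier, of -0.98 ± 0.04, while SLC38A2, another glutamine carrier, rose by 0.43 ± 0.04. SLC7A5, the leucine importer, was at 2455 and 2461 CPM in normoxia and 2479 and 2434 CPM in hypoxia, and did not pass (-0.001 ± 0.03, edgeR adjusted p = 0.976). Its partner chain SLC3A2 fell by 0.30 ± 0.03.

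Mitochondrial carriers, the SLC25 proteins that move metabolites over the inner mitochondrial membrane, were mostly lower, as were genes of the SLC35 family. That family includes carriers that bring nucleotide sugars into the Golgi for glycosylation. Its members were gathered by symbol and not by that function. Of 54 tested mitochondrial carriers, 31 fell and 16 rose. At least 2-fold, 15 fell (27.8%) and 4 rose (7.41%), or 11 and 6 with upper quartile normalization. SLC25A33, a pyrimidine nucleotide carrier, was at 13.1 and 13.7 CPM in normoxia and 2.58 and 2.39 CPM in hypoxia (-2.43 ± 0.12, edgeR adjusted p = 2.3e-14). The carriers SLC25A32 for folate and SLC25A13 for aspartate and glutamate, both picked after their values were seen, had log2 fold changes of -1.89 ± 0.08 and -1.65 ± 0.06. SLC25A32 shares exon bases with the more abundant DCAF13. Among the risers, SLC25A29, which carries basic amino acids, went from 8.07 and 9.01 to 21.6 and 20.3 CPM (1.29 ± 0.10, edgeR adjusted p = 4.23e-11). SLC25A1, the citrate carrier, rose by 1.17 ± 0.06. Of 20 SLC35 members, 12 fell and 5 rose, and 7 fell at least 2-fold (35.0%). SLC35C1, the GDP-fucose transporter, fell from 56.2 and 59.9 to 13.03 and 12.2 CPM (-2.20 ± 0.07, edgeR adjusted p = 7.47e-18). SLC35B4, which carries UDP-xylose, fell by 1.83 ± 0.10. The 2 members that rose at least 2-fold were SLC35A3, for UDP-N-acetylglucosamine, from 33.7 and 32.2 to 70.9 and 73.8 CPM (1.14 ± 0.05, edgeR adjusted p = 1.58e-14), and SLC35A1, for CMP-sialic acid, by 1.00 ± 0.08. That count fell to 1 without normoxia replicate 1 or hypoxia replicate 2, and without a low-count filter.

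Carriers of vitamins, phosphate, nucleosides and organic ions were lower in 25 of 50 tested members and higher in 13, with 10 lower and 7 higher at least 2-fold, or 8 lower and 9 higher with upper quartile normalization. SLC5A6, the sodium-dependent carrier of biotin and pantothenate, was at 72.8 and 73.6 CPM in normoxia and 9.67 and 9.43 CPM in hypoxia (-2.94 ± 0.07, edgeR adjusted p = 3.08e-20). It shares 7.37% of its exon bases with ATRAID, whose level was 179% of its own. SLC20A1, a phosphate importer, fell by 2.13 ± 0.05. The folate carrier SLC19A1 and the nucleoside carrier SLC29A1, added after their values were seen, had log2 fold changes of -2.06 ± 0.07 and -1.88 ± 0.06. SLC19A1 shares exon bases with the more abundant COL18A1. SLCO1B3, an organic anion importer best known from liver, went the other way, from 26.8 and 25.7 CPM to 117 and 117 CPM (2.15 ± 0.06, edgeR adjusted p = 4.37e-19). Its sequence is close to that of a neighbouring family gene, so its counts are uncertain. SLC22A18, a member of the organic cation carrier family, rose by 1.77 ± 0.13.

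ABC proteins split evenly, with 11 of 29 tested members higher and 11 lower (37.9% each, beside 36.3% and 42.2% of protein-coding genes). By the 2-fold rule there were 5 in each direction (17.2%, beside 12.1% and 13.7%). The members that fell most have no membrane-spanning part. ABCF2 was at 97.8 and 97.99 CPM in normoxia and 9.30 and 11.1 CPM in hypoxia (-3.26 ± 0.07, edgeR adjusted p = 3.89e-20), and ABCE1, the ribosome recycling factor, fell by 1.76 ± 0.05. ABCF2 shares 45.8% of its exon bases with the readthrough gene ABCF2-H2BE1, so the split of reads between them is uncertain. The largest increases above the expression floor set for named genes were in lipid transporters. ABCA7 went from 7.63 and 7.30 to 31.2 and 29.95 CPM (2.04 ± 0.10, edgeR adjusted p = 1.56e-14), and ABCA5 rose by 1.70 ± 0.13. ABCG2, a drug efflux pump named after its value was seen, had a log2 fold change of -1.35 ± 0.08.

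Cation channels and ion pumps rose more often than they fell. Of 87 tested members, 38 rose and 25 fell, and 19 rose at least 2-fold (21.8%) against 9 that fell (10.3%). The store-operated calcium channels diverged. ORAI3 was at 8.93 and 9.20 CPM in normoxia and 66.5 and 66.5 CPM in hypoxia (2.87 ± 0.07, edgeR adjusted p = 1.48e-19), while ORAI1, named after its value was seen, had a log2 fold change of -1.54 ± 0.09. ATP8B3, a phospholipid flippase, rose by 1.95 ± 0.17. TRPM2, a cation channel opened by ADP-ribose, fell from 69.0 and 74.8 to 12.3 and 11.3 CPM (-2.61 ± 0.07, edgeR adjusted p = 3.61e-19), and MCOLN1, a lysosomal calcium channel, fell by 1.78 ± 0.11. Further channels of low level were also named after their values were seen, some near the limit of detection in normoxia. TRPV4, a calcium channel that responds to osmotic stress, had 1 and 0 counts in normoxia and 83 and 50 in hypoxia, a ratio of 135 (95% counting interval 23.7 to 5350). SCN4B, a sodium channel subunit, had 4 and 7 counts against 64 and 75 in hypoxia, a ratio of 12.8 (interval 6.93 to 26.2). TRPM6, a magnesium channel, went from 78 and 79 counts to 5 and 15, 7.76 times fewer after scaling (interval 4.86 to 13.1). The intervals given here and below cover counting error only.

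Anion channels, aquaporins, connexins and pannexins had 20 of 43 members higher and 15 lower, with 12 (27.9%) and 7 (16.3%) at least 2-fold, or 13 and 4 with upper quartile normalization. ANO9, of the anoctamin family of channels and lipid scramblases, went from 11.9 and 14.9 to 54.4 and 54.7 CPM (2.02 ± 0.08, edgeR adjusted p = 5.7e-16). TTYH3, a tweety family protein, rose by 1.85 ± 0.04. LRRC8B, a subunit of the volume-regulated anion channel, fell from 5.54 and 5.72 to 1.60 and 1.76 CPM (-1.75 ± 0.20, edgeR adjusted p = 5.02e-08), and CLCN4, a chloride and proton exchanger, fell by 1.27 ± 0.20. GJA1, encoding connexin 43 of gap junctions, was named after its value was seen and rose by 1.63 ± 0.10.

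G protein-coupled receptors had 34 of 83 tested members higher and 25 lower, with 24 higher (28.9%) and 8 lower (9.64%) at least 2-fold, or 4 lower under the filter of 50 counts in 2 libraries. GPRC5A (ENSG00000013588, chr12:12890782-12917937), an orphan receptor induced by retinoic acid, was at 325 and 316 CPM in normoxia and 3535 and 3521 CPM in hypoxia (3.46 ± 0.03, edgeR adjusted p = 2.52e-27). GPR157, another orphan receptor, rose by 2.96 ± 0.09. GPRC5C and GPRC5D, relatives of GPRC5A, were looked at after its value was seen. GPRC5C rose by 2.04 ± 0.07, and GPRC5D, with 5 and 5 counts in normoxia against 23 and 27, had a ratio of 5.06 (interval 2.53 to 11.2). HTR7, a serotonin receptor, fell by 1.24 ± 0.15. Of other receptors named after their values were seen, F2RL1, the protease-activated receptor 2, rose by 0.57 ± 0.04. HCAR2, the niacin receptor, rose by 1.97 ± 0.08 but has a near-identical copy in HCAR3 and is uncertain. S1PR4, a sphingosine 1-phosphate receptor, had 1 and 2 counts in normoxia and 46 and 57 in hypoxia, a ratio of 34.7 (interval 11.6 to 171). GPR132 had 0 counts in normoxia and 12 and 13 in hypoxia. Its ratio was 8.43 with normoxia set to 3 counts in total. The counting interval was computed with the 0 counts themselves and not with 3, so it does not belong to that ratio. It runs from 6.36 without an upper limit. GPR75 went down from 31 and 38 counts to 3 and 2, a ratio of 13.6 (interval 5.57 to 43.4).

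Receptor tyrosine kinases outside the EGFR family had 10 of 19 members higher and 8 lower. At least 2-fold, 5 rose (26.3%) and 4 fell (21.1%), or 2 fell under the filter of 50 counts in 2 libraries. DDR1, a receptor for collagen on epithelial cells, rose from 459 and 475 to 2068 and 2016 CPM (2.13 ± 0.03, edgeR adjusted p = 1.32e-22). The related DDR2, named after its value was seen, had 26 and 19 counts in normoxia and 8 and 6 in hypoxia, a ratio of 3.18 in the other direction (interval 1.71 to 6.27). PDGFRL, a receptor-like gene without a kinase domain, rose by 1.39 ± 0.18 but shares 11.5% of its exon bases with MTUS1, at 3410% of its level. ROR1, a receptor for WNT5A, fell from 5.99 and 5.60 to 1.63 and 1.20 CPM (-2.03 ± 0.21, edgeR adjusted p = 1.13e-08). FGFRL1, an FGF receptor without a kinase domain, fell by 0.93 ± 0.07.

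Ephrins and Eph receptors, which signal between touching cells, had 5 of 12 tested members higher and 7 lower, or 5 and 4 with upper quartile normalization. The 5 risers all rose at least 2-fold (41.7%). EFNA3 (chr1:155078872-155087538) went from 9.19 and 9.36 CPM to 99.1 and 94.2 CPM (3.38 ± 0.07, edgeR adjusted p = 6.42e-21), and the neighbouring EFNA1 (chr1:155127460-155134857) rose by 3.03 ± 0.05. Both encode ligands of the A class. EPHA2, a receptor of A-class ephrins, fell from 77.6 and 77.6 to 20.97 and 20.03 CPM (-1.92 ± 0.05, edgeR adjusted p = 1.55e-18). EFNB2, a B-class ligand, fell by 1.38 ± 0.08. EPHB3, a B-class receptor named after its value was seen, rose by 2.29 ± 0.15. The A-class ligands and a B-class receptor were thus higher, and an A-class receptor and a B-class ligand lower, in these libraries.

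TNF receptors, ligands and adaptors had 11 of 29 members higher (37.9%) and 13 lower (44.8%), near the protein-coding 36.3% and 42.2%. By the 2-fold rule, 4 rose (13.8%) and 6 fell (20.7%). TRADD, the death domain adaptor, went from 13.8 and 13.3 to 48.1 and 44.6 CPM (1.77 ± 0.07, edgeR adjusted p = 1.44e-15). It shares 4.91% of its exon bases with FBXL8, at 41.4% of its level. NGFR, the p75 neurotrophin receptor, rose by 1.33 ± 0.11. TNFRSF12A, the receptor of TWEAK, fell from 181 and 191 to 75.3 and 74.2 CPM (-1.32 ± 0.04, edgeR adjusted p = 5.21e-17), and TRAF3, a signalling adaptor, fell by 1.29 ± 0.07. The receptors of the death ligand TRAIL were looked at after the values were seen and differed among themselves. TNFRSF10A had a log2 fold change of -1.18 ± 0.07, while TNFRSF10B rose by 0.86 ± 0.04 and the decoy TNFRSF10D by 1.19 ± 0.08. FAS, the receptor of Fas ligand, fell by 0.84 ± 0.12.

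Interleukin and cytokine receptors had 15 of 31 members higher and 10 lower, with 9 and 4 at least 2-fold. IL10RB, a shared chain of receptors for interleukin 10 and related cytokines, went from 14.2 and 15.1 to 49.9 and 51.1 CPM (1.79 ± 0.07, edgeR adjusted p = 1.86e-15). IL11RA rose by 1.69 ± 0.19, with 7.82% of its exon bases shared with GALT, at 138% of its level. IL7R, the interleukin 7 receptor, fell by 1.26 ± 0.08. Of receptors named after their values were seen, OSMR, the oncostatin M receptor, rose by 1.53 ± 0.03 and IL1RAP, the partner chain of the interleukin 1 receptor, by 1.28 ± 0.05.

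Lipoprotein and scavenger receptors had 12 of 26 members higher (46.2%) and 9 lower (34.6%). At least 2-fold, 3 rose (11.5%) and 2 fell (7.69%), no more often than the protein-coding 12.1% and 13.7%. LRP1, a large endocytic receptor, was at 40.7 and 38.6 CPM in normoxia and 361 and 361 CPM in hypoxia (3.19 ± 0.04, edgeR adjusted p = 1.7e-24). VLDLR rose by 2.69 ± 0.11. LRP8, the closest relative of VLDLR, fell from 64.7 and 65.1 to 20.7 and 22.2 CPM (-1.60 ± 0.06, edgeR adjusted p = 4.41e-16). Of the 21 tested axon guidance genes (semaphorins and neuropilins left aside), 11 rose and 6 fell. At least 2-fold, 5 rose (23.8%) and 1 fell (4.76%). PLXNB3, a semaphorin receptor, went from 14.1 and 15.7 to 61.4 and 61.1 CPM (2.04 ± 0.07, edgeR adjusted p = 3.46e-17), and PLXNA3 rose by 1.58 ± 0.14. PLXNA2 fell from 31.8 and 31.1 to 13.3 and 17.6 CPM (-1.03 ± 0.10, edgeR adjusted p = 8.1e-08). It was the member lower at least 2-fold, a count that became 0 without hypoxia replicate 1, with upper quartile normalization and under the filter of 50 counts. RGMB, a co-receptor for BMPs, fell by 0.77 ± 0.10.

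Among the TGF-beta superfamily and SMADs, 22 of 53 members rose and 11 fell, with 8 (15.1%) and 5 (9.43%) at least 2-fold. The filter of 50 counts left 5 and 3, and DESeq2 called 5 higher. The activin antagonists moved in opposite directions. FSTL3 went from 46.5 and 46.9 to 139 and 137 CPM (1.56 ± 0.04, edgeR adjusted p = 1.31e-18), whereas FST, encoding follistatin, fell from 17.5 and 16.2 to 4.55 and 4.05 CPM (-1.97 ± 0.11, edgeR adjusted p = 2.68e-13). BMP7 rose by 1.22 ± 0.06, and AMH, the anti-Müllerian hormone, fell by 1.20 ± 0.16. INHA, the inhibin alpha subunit, had 13 and 29 counts in normoxia against 145 and 162 in hypoxia, a ratio of 7.39 (interval 5.34 to 10.5). SMAD3, which carries activin and TGF-beta signals to the nucleus, rose by 1.17 ± 0.04. Both were named after their values were seen.

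Growth factors, hormones and secreted peptides went both ways, with 27 of 53 members higher and 15 lower. At least 2-fold, 11 changed in each direction (20.8% each). FGF11, an FGF relative that stays inside the cell, was at 7.25 and 6.48 CPM in normoxia and 54.8 and 59.0 CPM in hypoxia (3.05 ± 0.08, edgeR adjusted p = 8.62e-19). It shares 4175 exon bases, most of its own, with ENSG00000272884, which stood at 25.1% of its level, so the split of reads between these genes of the same strand is uncertain. ADM, the vasodilator adrenomedullin, rose by 3.03 ± 0.04. PTHLH, the parathyroid hormone-related protein, fell from 85.3 and 85.7 to 14.01 and 14.4 CPM (-2.59 ± 0.05, edgeR adjusted p = 6.9e-21). FGFBP1, a carrier that releases FGFs from matrix, fell by 2.19 ± 0.13. Its cargo FGF2 had a log2 fold change of -1.95 ± 0.07 and KITLG, the ligand of KIT, of -1.66 ± 0.07, both named after their values were seen. So were the stanniocalcins: STC1 had 1 and 0 counts in normoxia and 69 and 64 in hypoxia, a ratio of 135 (interval 23.7 to 5350), and STC2 rose by 2.58 ± 0.06. The endothelins and neuromedin U were named in the same way. EDN2 had 1 and 3 counts against 37 and 25, a ratio of 15.7 (interval 5.82 to 59.3), EDN1 rose by 1.04 ± 0.22, and NMU had 5 and 11 counts against 108 and 85, a ratio of 12.2 (interval 7.32 to 21.8).

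The insulin and IGF axis had the highest family median, 0.68, with 8 of 15 members higher and 4 lower. At least 2-fold, 5 rose (33.3%) and 1 fell, and the filter of 50 counts left 3 risers. IGFBP3 (chr7:45912245-45921874), which binds IGFs in the extracellular space, went from 8.04 and 6.42 CPM to 117 and 122 CPM (4.05 ± 0.08, edgeR adjusted p = 2.09e-21), and IGFBP6 rose by 1.47 ± 0.05. IRS1, the adaptor that carries the receptor signal, fell from 71.3 and 73.2 to 22.3 and 21.5 CPM (-1.72 ± 0.06, edgeR adjusted p = 1.66e-17). IDE, a protease that degrades insulin, fell by 0.66 ± 0.05.

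Complement and coagulation genes had 12 of 28 members higher and 7 lower, or 15 and 4 with upper quartile normalization. At least 2-fold, 5 rose (17.9%) and 1 fell (3.57%). DESeq2 called 3 risers, and 2 members fell at least 2-fold without normoxia replicate 1 or hypoxia replicate 2 and in the fit of these 4 libraries alone. C1RL, a protease related to complement C1r, went from 21.76 and 22.03 to 55.4 and 54.1 CPM (1.32 ± 0.07, edgeR adjusted p = 9.32e-14), with 13.4% of its exon bases shared with C1R, at 11.8% of its level. The 2 enzymes that recycle vitamin K moved apart. VKORC1 rose by 1.11 ± 0.05, and VKORC1L1 fell from 136 and 129 to 47.3 and 47.2 CPM (-1.48 ± 0.05, edgeR adjusted p = 7.42e-18). C1QBP, a mitochondrial protein that also binds complement C1q, fell by 0.85 ± 0.03.

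Matrix glycoproteins and proteoglycans had 24 of 47 members higher and 9 lower, with a median of 0.52. At least 2-fold, 9 rose (19.1%) and 5 fell (10.6%). TGFBI, a matrix protein induced by TGF-beta, went from 3.39 and 3.73 to 14.7 and 14.8 CPM (2.05 ± 0.12, edgeR adjusted p = 1.1e-12). THBS3 rose by 1.95 ± 0.11 and shares 3.16% of its exon bases with MTX1, at 367% of its level. TNC, encoding tenascin C, fell from 107 and 111 to 28.4 and 28.4 CPM (-1.94 ± 0.05, edgeR adjusted p = 2.08e-19), and the surface proteoglycan SDC1 fell by 1.89 ± 0.04. Further matrix genes were named after their values were seen. THBS1, an abundant thrombospondin, was at 1443 and 1427 CPM in normoxia and 416 and 415 CPM in hypoxia, and had a log2 fold change of -1.79 ± 0.03. CD44, a receptor of hyaluronan, and HAS3, which makes it, had log2 fold changes of -0.90 ± 0.03 and -1.25 ± 0.07. HAS3 shares 6.9% of its exon bases with CHTF8, at 251% of its level. EFEMP2, an elastic fibre protein, had 17 and 18 counts in normoxia and 589 and 537 in hypoxia, a ratio of 32.5 (interval 23.3 to 46.9). The thrombospondins THBS1 and THBS3 therefore moved apart.

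Of 15 tested protease inhibitors, mucins and others such as LCN2, 8 rose and 1 fell, and 4 rose at least 2-fold (26.7%). MUC1 (chr1:155185824-155192916), a membrane mucin of epithelial surfaces, went from 1.79 and 2.02 CPM to 39.2 and 40.4 CPM (4.37 ± 0.12, edgeR adjusted p = 6.86e-19). MUC16, another membrane mucin, rose by 1.33 ± 0.16. The gene that fell was LCN2, an iron-scavenging lipocalin, from 3.68 and 3.60 to 2.44 and 2.04 CPM (-0.70 ± 0.18, edgeR adjusted p = 0.0015). DMBT1, a mucin-like protein, had the lowest fitted value, -1.47, and did not pass. In the fit of these 4 libraries alone, 1 member fell at least 2-fold. WFDC3, a small inhibitor-like protein named after its value was seen, had 7 and 7 counts against 121 and 103 in hypoxia, a ratio of 16.2 (interval 9.44 to 30.1).

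Of 70 tested homeobox factors, 30 fell (42.9%), close to the protein-coding background of 42.2%, and 20 rose (28.6%, beside 36.3%). At least 2-fold, 15 fell (21.4%) and 6 rose (8.57%), but 12 and 11 with upper quartile normalization. MSX1 fell from 2.60 and 3.41 to 0.984 and 0.458 CPM (-2.05 ± 0.32, edgeR adjusted p = 9.05e-06). HOXA7 fell by 1.95 ± 0.13. Its neighbours in the HOXA cluster on chromosome 7, looked at after HOXA7 was seen, were lower too. HOXA9 and HOXA10 had log2 fold changes of -1.81 ± 0.21 and -1.29 ± 0.10, and HOXA11 went from 71 and 76 counts to 6 and 6, a ratio of 12.1 (interval 6.73 to 24). Antisense genes share exon bases with these 3 genes, so without strand their counts are uncertain. HMBOX1 went from 2.98 and 2.94 to 6.89 and 7.39 CPM (1.27 ± 0.16, edgeR adjusted p = 2.15e-07), and MEIS3, a HOX cofactor, rose by 1.13 ± 0.11.

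Forkhead factors had 10 of 21 members higher and 6 lower, with 4 in each direction at least 2-fold. FOXN3, a repressor, went from 17.7 and 17.2 to 54.9 and 58.5 CPM (1.70 ± 0.06, edgeR adjusted p = 2.01e-16). FOXO4, which acts in growth restraint and stress resistance, rose by 1.36 ± 0.09, and its relative FOXO3, named after its value was seen, by 1.19 ± 0.04. FOXR2 fell from 23.99 and 25.3 to 9.81 and 8.91 CPM (-1.40 ± 0.09, edgeR adjusted p = 3.92e-12), and FOXC1 fell by 1.21 ± 0.09. The proliferation factor FOXM1 had a log2 fold change of -0.63 ± 0.03. Of 18 ETS factors, 9 rose and 5 fell, and 3 rose at least 2-fold (16.7%). The lowest fitted value in the family was -0.67, so no member was 2-fold lower with or without a test. ELF3, an epithelial ETS factor, went from 47.2 and 46.6 to 264 and 272 CPM (2.52 ± 0.04, edgeR adjusted p = 3.83e-23), and ETS2 rose by 1.81 ± 0.04. ETV5, a target of FGF and ERK signalling, fell from 5.54 and 6.39 to 3.53 and 3.98 CPM (-0.67 ± 0.18, edgeR adjusted p = 0.00258), and its relative ETV4 fell by 0.47 ± 0.07.

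Nuclear receptors and their coregulators had 16 of 40 members higher and 12 lower, with 4 in each direction at least 2-fold, or 8 higher and 4 lower with upper quartile normalization. PPARD, a receptor for fatty acids, went from 22.5 and 21.3 to 129 and 129 CPM (2.56 ± 0.05, edgeR adjusted p = 3.64e-21). NR1D1, a repressor of the circadian clock, rose by 1.78 ± 0.11, with 9.49% of its exon bases shared with THRA, at 130% of its level. PPARGC1B, a coactivator of mitochondrial genes, fell from 19.5 and 17.5 to 1.53 and 2.04 CPM (-3.37 ± 0.13, edgeR adjusted p = 5.98e-16). NCOA5 fell by 2.64 ± 0.07. PPRC1, related to PPARGC1B, and VDR, the vitamin D receptor, were named after their values were seen and had log2 fold changes of -2.45 ± 0.05 and -1.25 ± 0.06.

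The SOX, GATA, AP-2, grainyhead and p53 families hold factors of epithelial fate and were counted together with others such as OVOL1. Of 30 members, 12 were higher and 13 lower. At least 2-fold, 7 rose (23.3%) and 4 fell (13.3%). OVOL1, a repressor active in differentiating epidermis, rose by 2.14 ± 0.16. The next genes were picked after their values were seen. GRHL3, a driver of barrier formation, had 3 and 5 counts in normoxia and 49 and 44 in hypoxia, a ratio of 11.8 (interval 5.73 to 28). TP63, the master factor of squamous epithelium, rose by 0.98 ± 0.04, and its relative TP73 by 1.31 ± 0.22. Squamous markers did not all go with them, since the keratins KRT5, KRT14 and KRT6A fell, as given above. SOX2 had 9 and 6 counts in normoxia and 12 and 10 in hypoxia, which did not pass (edgeR adjusted p = 0.428, ratio 1.48, interval 0.735 to 3.07). SOX7 fell from 30.1 and 29.6 to 6.45 and 6.48 CPM (-2.21 ± 0.10, edgeR adjusted p = 8.9e-15), with 39.4% of its exon bases shared with PINX1, at 29.6% of its level. TFCP2L1, a grainyhead relative, fell by 1.93 ± 0.08.

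Of 26 bHLH and ID factors, 14 rose and 7 fell, or 15 and 4 with upper quartile normalization. At least 2-fold, 4 rose (15.4%). The lowest fitted value was -0.99, and 1 member fell at least 2-fold without normoxia replicate 2 or without either hypoxia replicate. MXI1 (chr10:110207605-110287365), which competes with MYC for their partner MAX, was at 7.22 and 7.30 CPM in normoxia and 148 and 150 CPM in hypoxia (4.36 ± 0.06, edgeR adjusted p = 2.69e-24). SREBF2, the activator of cholesterol synthesis, rose by 1.23 ± 0.04, and SREBF1, of fatty acid synthesis and named after its value was seen, by 0.32 ± 0.05. SREBF1 shares 6.9% of its exon bases with RAI1, at 122% of its level. MITF fell from 9.52 and 8.91 to 4.85 and 4.44 CPM (-0.99 ± 0.12, edgeR adjusted p = 2.14e-07). MLX, a partner of glucose-sensing factors, fell by 0.85 ± 0.05, with 18.1% of its exon bases shared with PSMC3IP. Factors that pair with each other were looked at after their values were seen. ARNT2, a dimer partner in the family of hypoxia and dioxin factors, had 17 and 22 counts in normoxia and 161 and 133 in hypoxia, a ratio of 7.62 (interval 5.45 to 10.9), while AHR, the dioxin receptor, had a log2 fold change of -0.37 ± 0.06.

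The bZIP factors outside AP-1 had 15 of 36 members higher (41.7%) and 14 lower (38.9%), near the protein-coding 36.3% and 42.2%. By the 2-fold rule there were 6 in each direction (16.7%). DBP, an activator in the circadian output, went from 2.34 and 2.59 to 39.7 and 37.3 CPM (3.96 ± 0.11, edgeR adjusted p = 2.46e-18), sharing 10.1% of its exon bases with SPHK2, at 44.6% of its level. MAFF, a small MAF protein, rose by 1.77 ± 0.08, and BACH1, a partner of small MAFs that represses haem-responsive genes, by 1.34 ± 0.06. NFIL3, which represses the genes DBP activates, rose by 1.43 ± 0.06. BACH1 and NFIL3 were named after their values were seen. ATF5, of the amino acid stress response, fell from 14.7 and 15.5 to 2.58 and 2.85 CPM (-2.48 ± 0.13, edgeR adjusted p = 8.29e-14), with 21.2% of its exon bases shared with the more abundant NUP62. CREB5 fell by 2.02 ± 0.25. XBP1, of the unfolded protein response and named afterwards, had a log2 fold change of -1.63 ± 0.06. Of 100 tested RUNX, T-box, NFAT, NFI, MEF2, RFX and BTB zinc finger factors, 44 rose and 33 fell, with 18 and 5 at least 2-fold. BCL6, a transcriptional repressor, went from 1.97 and 2.02 to 15.98 and 16.6 CPM (3.02 ± 0.13, edgeR adjusted p = 3.28e-15), and TSC22D3, a glucocorticoid-induced regulator known as GILZ, rose by 2.97 ± 0.07. ZIC5 fell from 7.74 and 7.56 to 1.19 and 1.44 CPM (-2.54 ± 0.19, edgeR adjusted p = 5.97e-11).

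**Figure D3:**
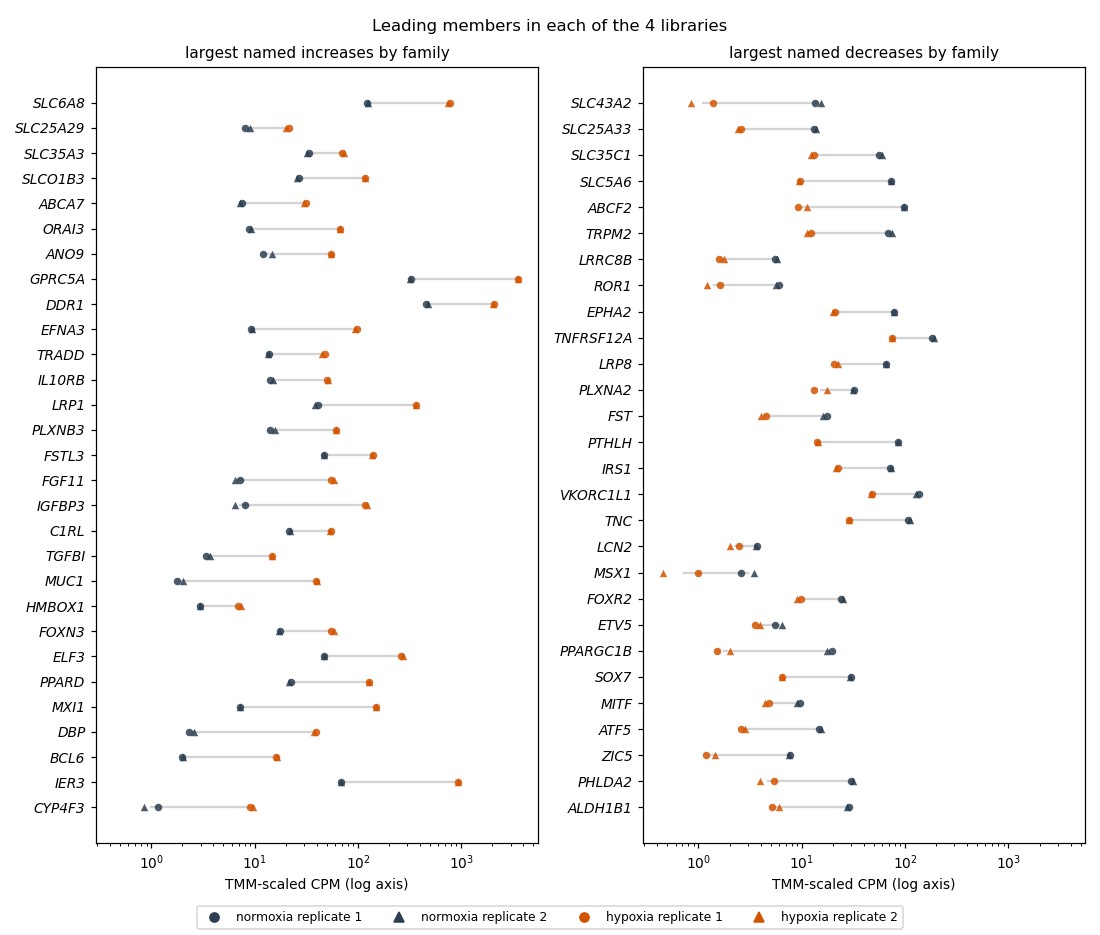
TMM-scaled CPM on a log axis in each of the 4 libraries, for the largest named increase (left) and decrease (right) of the families, as far as these genes are reported. Circles and triangles are replicates 1 and 2, dark for normoxia and orange for hypoxia, and the grey line joins the group means. By the rule that chose them the groups do not overlap, and replicates mostly sit on top of each other, as for GPRC5A at 325 and 316 CPM in normoxia and 3535 and 3521 CPM in hypoxia.

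Stress kinases and fast-response regulators were close to even, with 50 of 130 members higher (38.5%) and 51 lower (39.2%). These shares were near the protein-coding 36.3% and 42.2%. By the 2-fold rule, 24 rose (18.5%) and 16 fell (12.3%). IER3 (ENSG00000137331, chr6:30743199-30744554), an early response gene that limits cell death, was at 68.2 and 68.1 CPM in normoxia and 927 and 925 CPM in hypoxia (3.76 ± 0.04, edgeR adjusted p = 1.59e-25). PNRC1, a nuclear receptor coregulator, rose by 3.65 ± 0.06. PHLDA2, an imprinted growth regulator, fell from 29.8 and 31.4 to 5.43 and 3.91 CPM (-2.71 ± 0.10, edgeR adjusted p = 6.23e-16), and SGK1, a kinase that controls ion transport, fell by 2.00 ± 0.09. Further members were named after their values were seen. INSIG1 and INSIG2, which hold SREBP proteins back in the endoplasmic reticulum, rose by 3.06 ± 0.06 and 3.35 ± 0.08. DAPK2, a calcium-dependent death kinase, went from 1.93 and 2.75 CPM to 28.6 and 29.6 CPM (3.62 ± 0.13). ERRFI1, a feedback inhibitor of the EGF receptor, rose by 2.52 ± 0.05 and the survival kinase PIM1 by 2.20 ± 0.05. TNFAIP3, an inhibitor of NF-kB signalling, rose by 1.45 ± 0.08. The mRNA decay factors ZFP36L1 and ZFP36L2 had log2 fold changes of 1.49 ± 0.05 and -1.002 ± 0.08, and TRIB1, a pseudokinase, of -1.78 ± 0.14.

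Detoxifying and redox enzymes of the cytochrome P450, aldehyde dehydrogenase, aldo-keto reductase, glutathione and sulfate transfer families had 25 of 59 members higher and 21 lower. At least 2-fold, 11 rose (18.6%) and 8 fell (13.6%), or 5 fell under the filter of 50 counts. CYP4F3, which breaks down leukotriene B4, went from 1.15 and 0.854 to 8.96 and 9.75 CPM (3.23 ± 0.20, edgeR adjusted p = 2.57e-12), but close copies in the CYP4F cluster make its counts uncertain. ALDH3B1, an aldehyde dehydrogenase, rose by 2.60 ± 0.05. CYP1A1, a target of the dioxin receptor AHR, rose by 2.04 ± 0.06 and was named after its value was seen, while AHR itself was lower, as given above. ALDH1B1, a mitochondrial aldehyde dehydrogenase, fell from 28.8 and 27.5 to 5.16 and 6.09 CPM (-2.32 ± 0.10, edgeR adjusted p = 2.2e-15), and CYP26B1, which degrades retinoic acid, fell by 1.81 ± 0.18.

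Some related genes moved apart and others moved together, as INSIG1 with INSIG2 and EFNA1 with EFNA3. Pairs that moved apart were collected for that reason after the values were seen, so they describe these libraries and say nothing of how common such pairs are. In the matrix and adhesion pairs, DDR1, EFNA3 and EPHB3 were higher while DDR2, EFNB2 and EPHA2 were lower. Among carriers and channels, ORAI3 and SLC35A3 stood against ORAI1 and SLC35B4. PLXNB3 (2.04 ± 0.07) and PLXNA2 (-1.03 ± 0.10) divided the plexins, and VLDLR (2.69 ± 0.11) and LRP8 (-1.60 ± 0.06) the reelin receptors. The difference between the members of a pair was not tested as such, since each gene was set against its own level in normoxia.

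**Figure D4:**
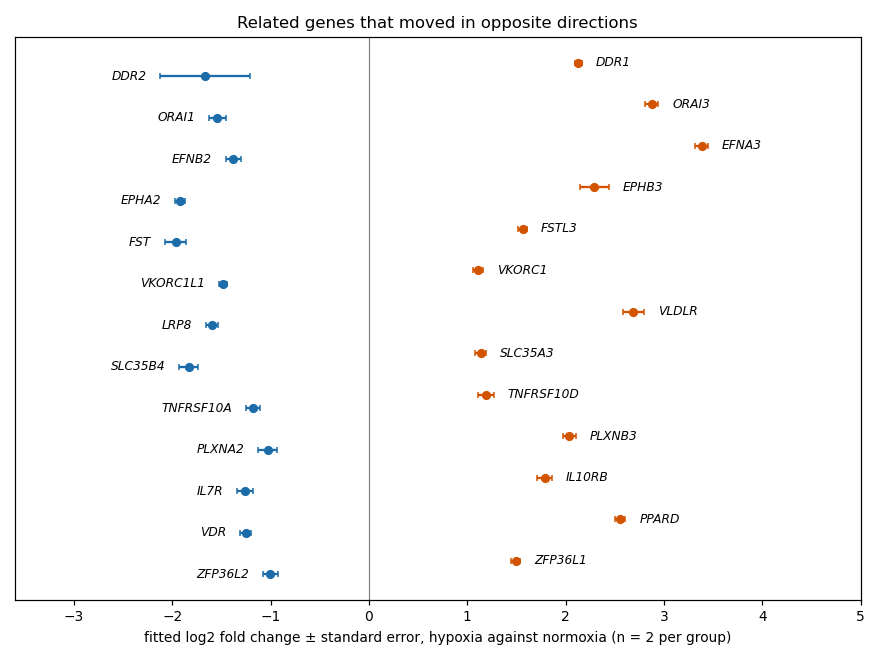
Fitted log2 fold change ± standard error of hypoxia against normoxia (n = 2 libraries per group) for pairs of related genes that passed the test in opposite directions, 1 pair a row, chosen after their values were seen. Higher members are orange and lower members blue, from EFNA3 at 3.38 ± 0.07 to FST at -1.97 ± 0.11.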

How the data were processed

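The authors deposited 1 table of gene counts for the 8 libraries, whole numbers without normalization. Per the submitters' processing notes, the tools were RSEM 1.3.3, STAR 2.7.8a and FastQC 0.11.9, on hg38 or GRCh38, with no roles stated. The counts may be rounded RSEM estimates. Neither strand nor annotation release is stated.

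The analysis used edgeR 4.0.16 and limma 3.58.1 under R 4.3.3. filterByExpr with a minimum count of 10 kept 15554 of 61517 genes. A robust quasi-likelihood model with TMM scaling took 4 group means over 8 libraries, leaving 4 residual degrees of freedom. Hypoxia was tested against normoxia with Benjamini-Hochberg adjustment over all tested genes at 0.05. Standard errors were derived from the F statistic. Positions and biotypes are those of GENCODE release 29 on GRCh38, which holds 98.0% of tested identifiers. Counting intervals are exact Clopper-Pearson at 95%.

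Families were gathered by symbol pattern. Families, lists and genes were chosen with earlier results of these data known. Wrong matches of 2 patterns (CSTF and KLHL genes) were removed, 2 families renamed and the upstream window shortened to 250 bases after values were seen. Named genes are, per family, the 2 largest increases and 2 largest decreases among called members whose log2 CPM averages 1 or more and whose groups do not overlap. The first of each pair is given by library. A few genes that this rule names are not reported here.

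The method was tested on simulated data for this comparison, with 200 changed among 14821 genes. It recovered 74% of 1.5-fold increases, 94% of 2-fold increases, 86% of 2-fold decreases and 100% of 4-fold increases. The changed genes were drawn only from those above a minimum level in normoxia, so these rates do not cover genes of low level. Far fewer genes were changed there than were called in the data. False calls numbered 18 of 195, over the intended 5%. Alternatives were RLE and upper quartile scaling, no filter, DESeq2 1.42.0, a filter of 50 counts in 2 libraries, a replicate block, a test against a 1.5-fold change, the 4 compared libraries alone and leaving out each library.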

Additional observations from a re-analysis of the deposited data

How the results depend on the processing

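The count of genes called higher and lower was 5702 and 5727 and stayed within 1.5 times of that under every alternative run except the edgeR test against a fold change of 1.5, which called 2885 and 2841. Calls of at least 2-fold, 2427 and 2033, stayed within 1.5 times of that under every alternative run. Leaving out each library in turn gave 5067 to 5103 higher and 5266 to 5322 lower. Upper quartile normalization moved the share of higher calls from 49.9% to 56.1%. With the replicate number as a block, 5620 rose and 5681 fell. The numbers share no stated source, and the deviations of same-numbered libraries had a correlation of -0.02 over genes. Among the family counts, 24 alternative values moved by over 1.5 times and 696 did not. SLC7A5, which was not called, changed sign around 0 with RLE size factors and DESeq2 (0.00 in each), with the 4 libraries alone (0.002), under the filter of 50 counts (0.044) and without replicate 2 of normoxia or of hypoxia (leave-one-out values from -0.017 to 0.011), and passed as higher with upper quartile normalization (0.104, edgeR adjusted p = 0.00292). Of the other named genes, 12 lost their call under 1 alternative, the test against a fold change of 1.5, and none changed direction in the alternatives run.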
